A study of Mus musculus with 16 samples.

Results

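Livers lacking selenoproteins were compared with and without a KEAP1 protein in which 2 cysteines are replaced by serine. Compound mutant livers, 4 in number (genotype: Keap1 C226S&C613S homo::Trsp fl/fl::AlbCre), were set against 4 Trsp fl/fl::AlbCre livers across all named genes of the table, so that the fold changes come from 8 of the 16 libraries of the series. The spread they are tested against was estimated from all 16. All mice carried the floxed Trsp allele on both chromosomes, were 20 days old and were labelled male. In both groups compared, Trsp, the gene for the selenocysteine tRNA, was deleted by AlbCre, a Cre transgene driven by the albumin promoter, which acts in hepatocytes. The other cells of the liver keep their Trsp gene, and the RNA came from whole liver. In the compound mutant the Keap1 substitutions are in the germline and homozygous, so every cell of the animal carries them from conception. The other 8 libraries, from 4 Trsp fl/fl mice and 4 mice with the substitutions alone (Keap1 C226S&C613S homo::Trsp fl/fl, called substitution-only livers here), hold the same Keap1 comparison with selenoproteins intact and are given beside the results. The labels do not say which mice were littermates.

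KEAP1 is the substrate adaptor of a CUL3 ubiquitin ligase that marks the transcription factor NRF2 for degradation. Oxidants and electrophiles modify cysteines of KEAP1, NRF2 then accumulates, pairs with small MAF proteins and binds antioxidant response elements, and genes for detoxification, glutathione use and NADPH supply are transcribed. Selenoproteins, among them glutathione peroxidases and thioredoxin reductases, remove peroxides and reduce disulfides, and hepatocytes without them show raised NRF2 activity. The comparison addresses whether that raised activity needs the pair of substituted cysteines.

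The alleles that separate the groups are shown by the TaqMan genotyping probes of the study. They are printed 5′ to 3′ on the coding strand with the codon of interest in capitals. At C226S the change is G2C, and at C613S the changes are G2C and T3C, with positions counted from 1 at the first base of the codon and the wild-type base given first.
C226 codon, wild type: tgtcacacTGCcagctg
C226 codon, C226S: ctgtcacacTCCcagctg
C613 codon, wild type: atggaacccTGTcggaa
C613 codon, C613S: atggaacccTCCcggaa
Both wild-type probes matched the GENCODE transcript Keap1-201 once. The C226 codon lies in exon 3 of 6 at chr9:21234035-21234037, and the C613 codon in exon 6 at chr9:21230738-21230740, both on the minus strand of GRCm38 and both coding. The reading frame encodes 624 amino acids, so that the second cysteine is close to the carboxyl end.

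Each value below is the deposited log2(normalized count + 4) of a gene in a liver, unless reads or normalized counts are named, and a fold change on this scale understates the change of weakly expressed genes. Libraries held 11386721 to 16241101 recovered reads in Trsp fl/fl::AlbCre and 13561186 to 16691951 in the compound mutant. Of 18209 named genes, limma tested the 15781 that had 10 or more normalized counts in 4 or more libraries. Calling a gene took a log2 fold change beyond 1 in size, with its Benjamini-Hochberg adjusted p below 0.01, the thresholds of the study. Replicate 1 of the compound mutant did not match its label: Xist was 14.71 there and between 4.59 and 5.76 in the other 3, and Ddx3y, Uty and Eif2s3y, which are Y-linked, were at the minimum of 2, which is 0 reads. Albumin took 4.86% of the reads in this library and 6.35% in replicate 3, against 6.87% to 9.17% in Trsp fl/fl::AlbCre. Results are therefore given with and without replicate 1. Trsp has no row in the table, and gene totals cannot show a substitution, so neither allele was checked at the RNA level.

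Among the genes called lower in the compound mutant were 26 of 69 tested NRF2 targets, mostly enzymes of detoxification. With limma, 72 of 15781 genes were called lower, which is 0.456%, and 18 were called higher, which is 0.114%, together 0.57% of those tested. Of the 69 NRF2 target genes tested, from lists of 72 by role, 26 were called lower and 0 higher, and 61 had a fold change below 0. These lists were written with earlier results of these data known, so their counts and medians are a description. For 40 of the 69 all compound mutant livers were below all Trsp fl/fl::AlbCre livers, as in 4.08% of all genes tested. Their median log2 fold change was -0.92, beside 0.01 over all genes tested. The glutathione S-transferases, the quinone and carbonyl reductases and the glucuronidation enzymes held 21 of the 26. Summed over the NRF2 lists, the normalized counts ranged from 321000 to 364400 in Trsp fl/fl::AlbCre livers and from 109400 to 183600 in compound mutant livers. The groups did not overlap, and the compound mutant range reached down past the 174300 to 189900 of Trsp fl/fl livers. It also spanned the 131200 to 147900 of substitution-only livers. Without replicate 1 of the compound mutant, 48 genes were called lower and 10 higher, and 20 of the NRF2 target genes were lower. In a fit of the 8 compared libraries alone, 34 genes were called lower and 12 higher, with 15 NRF2 target genes lower. The total also turned on other libraries: it was 47 lower and 9 higher without Trsp fl/fl::AlbCre replicate 3, 42 lower and 8 higher without replicate 3 of the compound mutant, 10 higher without replicate 2, and 137 lower and 41 higher without replicate 4.

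**Figure D1:**
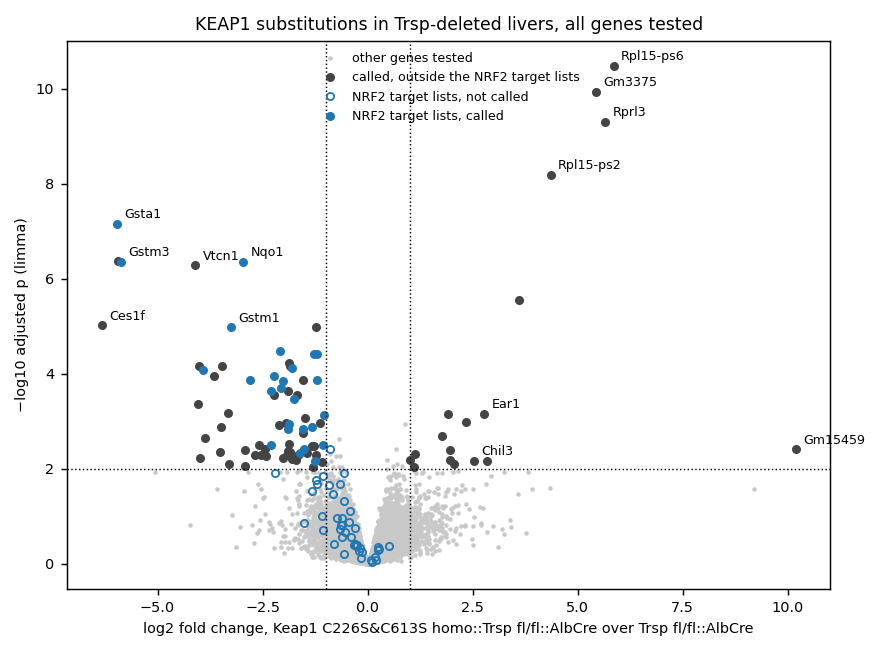
Log2 fold change of the compound mutant over Trsp fl/fl::AlbCre (x axis) and −log10 of the limma adjusted p (y axis) for the 15781 genes tested, with dotted lines at the thresholds and members of the NRF2 target lists in blue. The 26 filled blue points all lie on the left, and the points highest on the right are mostly pseudogenes.

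Among the enzymes that reduce quinones and carbonyls or open epoxides, 6 of 11 tested were called lower. Nqo1 (ENSMUSG00000003849) encodes a quinone reductase and is the usual readout of NRF2 in liver. It was 10.16, 9.40, 9.73 and 9.29 in the 4 Trsp fl/fl::AlbCre livers and 6.88, 7.16, 6.17 and 6.52 in the 4 compound mutant livers. All compound mutant livers lay below all Trsp fl/fl::AlbCre livers and below the 7.21 to 7.57 of Trsp fl/fl. They lay above the 5.40 to 5.61 of substitution-only livers. The log2 fold change was -2.96 (standard error, SE, 0.21, adjusted p = 4.4e-07 by limma), which as a ratio of mean normalized counts was 8.03-fold.

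Cbr3, a carbonyl reductase, was 8.56, 6.82, 7.61 and 5.96 in Trsp fl/fl::AlbCre and 3.52, 3.07, 3.72 and 3.0 in the compound mutant, a log2 fold change of -3.91 (SE 0.43, adjusted p = 8.3e-05 by limma). Cbr1, its neighbour on chromosome 16, fell by 1.80 on the log2 scale (SE 0.20, adjusted p = 7.7e-05 by limma). Aox1, aldehyde oxidase, fell by 1.87 (adjusted p = 0.0012 by limma) and Ephx1, microsomal epoxide hydrolase, fell by 1.61 (adjusted p = 0.0046 by limma), the latter not called without replicate 1 of the compound mutant. Pir, which encodes a nuclear iron-binding quercetinase, fell by 1.04 (adjusted p = 0.00074 by limma) and was also lost without that library. The 5 not called were Akr7a5, Akr1c13, Ptgr1, Akr1b10 and Akr1b8, with log2 fold changes from -0.83 to 0.51.

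Glutathione S-transferases, which join glutathione to electrophiles, made the largest group, with 10 of 14 tested called lower and a median log2 fold change of -2.06. Gsta1 (ENSMUSG00000074183), of the alpha class, had 1089, 852, 1195 and 704 reads in the Trsp fl/fl::AlbCre livers and 17, 13, 5 and 23 in the compound mutant livers. Its log2 fold change was -5.97 (SE 0.36, adjusted p = 6.9e-08 by limma), a 76.4-fold ratio of mean normalized counts. Trsp fl/fl livers held 0 to 7 reads of it. Gm3776, a near-identical copy on the same chromosome whose reads could be divided with Gsta1 by the counting, fell by 5.95 (adjusted p = 4.3e-07 by limma).

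The mu class lies in one cluster on chromosome 3, where 4 of 7 tested genes were called lower. Gstm3 (ENSMUSG00000004038) was 12.99, 13.20, 13.31 and 13.09 in Trsp fl/fl::AlbCre and 6.59, 7.64, 6.34 and 8.57 in the compound mutant, a log2 fold change of -5.86 (SE 0.41, adjusted p = 4.4e-07 by limma). The 4 compound mutant livers were below every Trsp fl/fl liver, of which the lowest was 10.06. Gstm1, the most abundant transferase here, was 15.97, 15.97, 15.69 and 15.83 against 11.74, 13.02, 12.10 and 13.56, a log2 fold change of -3.26 (SE 0.29, adjusted p = 1.1e-05 by limma). Replicates 1 and 3 of the compound mutant were lowest for both genes and replicate 4 highest. Gstm4 fell by 2.79 (adjusted p = 0.00014 by limma) and Gstm2 fell by 2.05 (adjusted p = 0.0002 by limma), whereas Gstm5 in the same cluster had a log2 fold change of 0.17 (adjusted p = 0.71 by limma).

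Of the pi class, Gstp1 fell by 2.08 (SE 0.20, adjusted p = 3.3e-05 by limma) and Gstp2 fell by 2.29 (adjusted p = 0.00023 by limma). The membrane-bound transferases Mgst1 and Mgst3 had log2 fold changes of -1.2 and -1.31 (adjusted p = 0.00014 and 0.0013 by limma). Gsta4, which acts on 4-hydroxynonenal, a product of lipid peroxidation, was 10.71, 10.74, 10.53 and 10.42 against 8.39, 9.47, 8.72 and 9.69, a log2 fold change of -1.53 (SE 0.22, adjusted p = 0.0014 by limma). Gsta2 and Gsta3 had log2 fold changes of -2.22 and -1.32 and missed the threshold, with limma adjusted p of 0.012 and 0.029. Paralogues of these classes share sequence, so reads could be divided among them by the counting.

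**Figure D2:**
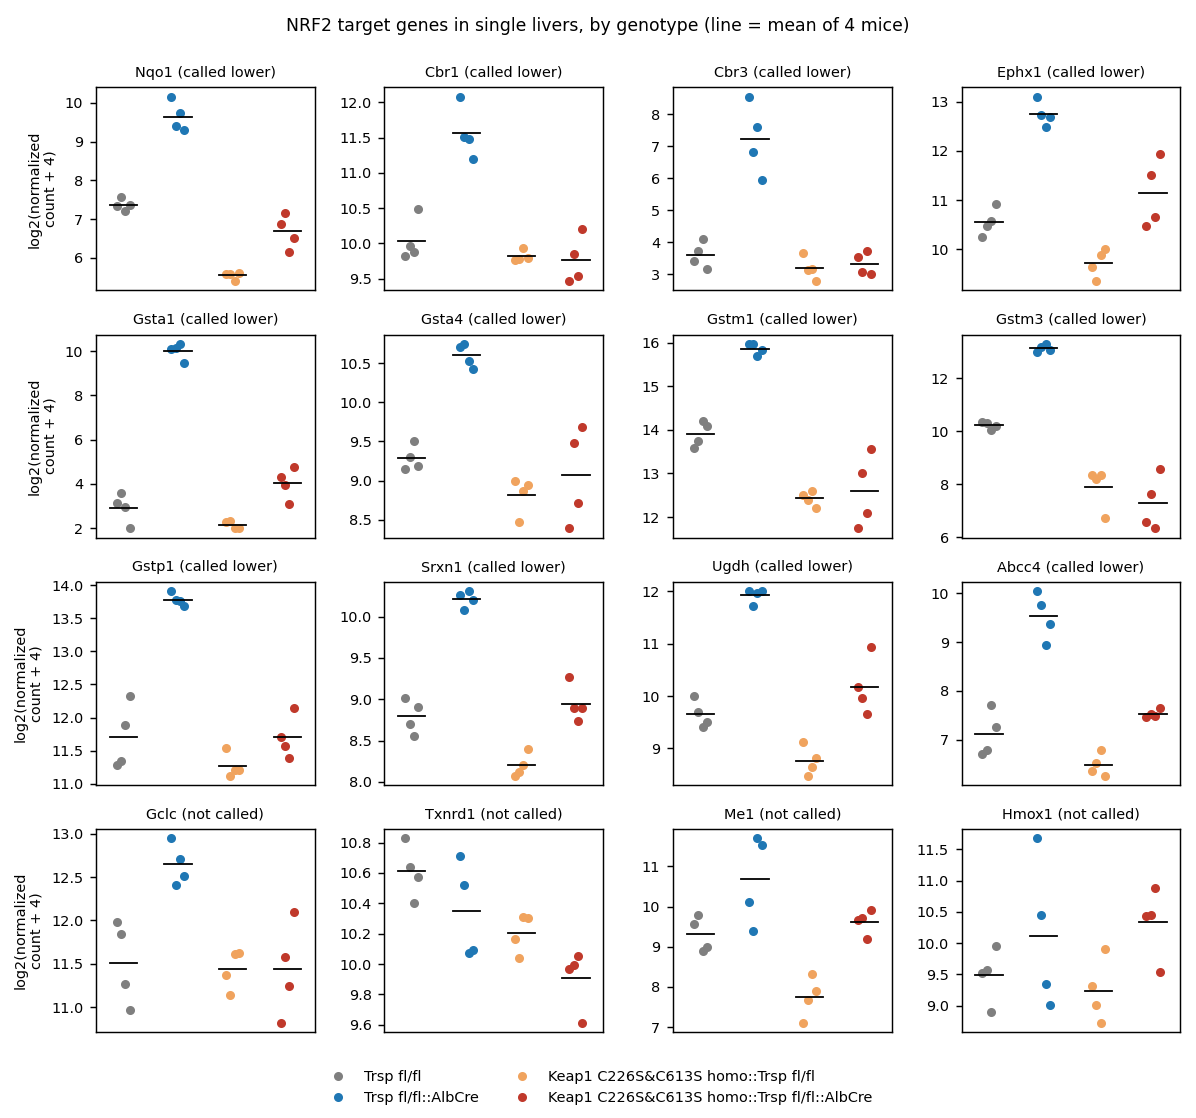
Log2(normalized count + 4) of 16 NRF2 target genes in each of the 16 livers (y axis), by genotype, with a line at the mean of 4 mice. In the 12 genes called lower, no compound mutant liver reaches a Trsp fl/fl::AlbCre liver, while in Gclc, Me1, Txnrd1 and Hmox1 the groups are closer or overlap.

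Genes for making and recycling glutathione did not follow the transferases at the threshold: 0 of 5 tested were called. Gclc, the catalytic subunit of glutamate-cysteine ligase, was 12.95, 12.41, 12.71 and 12.51 against 10.82, 11.58, 11.24 and 12.09, so that the groups did not overlap. Its log2 fold change of -1.21 (standard error 0.25) had a limma adjusted p of 0.021. Gclm, the modifier subunit, had -0.26 (adjusted p = 0.4 by limma), Gss, glutathione synthetase, -0.18 (adjusted p = 0.47 by limma), and Gsr, glutathione reductase, -0.56 (adjusted p = 0.048 by limma). Across the 5 tested, values ran from -1.21 to 0.28, with 1 above 0.

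In the thioredoxin and peroxiredoxin system, Srxn1, the sulfiredoxin that repairs overoxidized peroxiredoxins, was the 1 gene called of 6 tested. It was 10.26, 10.08, 10.31 and 10.21 against 9.27, 8.89, 8.73 and 8.89, a log2 fold change of -1.27 (SE 0.13, adjusted p = 3.8e-05 by limma). Txn1, thioredoxin, had -0.67 (adjusted p = 0.021 by limma) and Txnrd1, a selenoprotein and its reductase, -0.44 (adjusted p = 0.14 by limma). The other 3, Prdx1, Prdx6 and Sqstm1, lay between -0.61 and -0.14. Of the enzymes that supply NADPH, 0 of 6 were called. Me1, malic enzyme, was 10.12, 9.40, 11.70 and 11.54 against 9.67, 9.71, 9.21 and 9.92, groups that overlapped, with a log2 fold change of -1.06 (SE 0.42, adjusted p = 0.2 by limma). Tkt, transketolase, had -1.05 (adjusted p = 0.014 by limma).

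Glucuronidation genes were lower as a group, with 8 of 8 below 0 and 5 called. Ugdh makes the UDP-glucuronic acid that the transferases use. It was 12, 11.72, 11.97 and 12 against 10.17, 9.96, 9.65 and 10.93, a log2 fold change of -1.74 (SE 0.22, adjusted p = 0.00035 by limma). Among the transferases, Ugt2b35 fell by 2.23 (adjusted p = 0.00011 by limma), Ugt1a6a fell by 1.90 (adjusted p = 0.0015 by limma), Ugt2b5 fell by 1.52 (adjusted p = 0.0039 by limma) and Ugt2b36 fell by 1.24 (adjusted p = 0.0068 by limma). Ugt2b5 and Ugt2b36 were not called without replicate 1 of the compound mutant. Ugt1a1, which conjugates bilirubin, had -0.65 (adjusted p = 0.19 by limma). Across the Ugt2 cluster on chromosome 5, which includes genes outside the lists, 5 of 7 tested were called lower, beside 1 of 9 in the Ugt1a cluster, whose members share exons.

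Efflux transporters were called lower in 3 of 8. Abcc4 was 10.05, 9.77, 8.95 and 9.38 in Trsp fl/fl::AlbCre and 7.46, 7.52, 7.48 and 7.64 in the compound mutant, a log2 fold change of -2.01 (SE 0.23, adjusted p = 0.00015 by limma). Abcc3, which exports conjugates to the blood, had -2.31 (adjusted p = 0.0032 by limma) and was lost without replicate 1, and Abcg2 had -1.19 (adjusted p = 3.8e-05 by limma). The canalicular exporter Abcc2 had -1.08 (adjusted p = 0.099 by limma). Of the iron and heme genes, Ftl1, ferritin light chain, fell by 1.05 (adjusted p = 0.0032 by limma), a call lost without replicate 1, and Fth1 had -0.56 (adjusted p = 0.013 by limma). Hmox1, heme oxygenase, had 0.21 (adjusted p = 0.85 by limma), with overlapping groups. None of 7 regulators that NRF2 induces was called, and their log2 fold changes ran from -0.80 for Osgin1 to 0.25 for Nfe2l2.

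**Figure D3:**
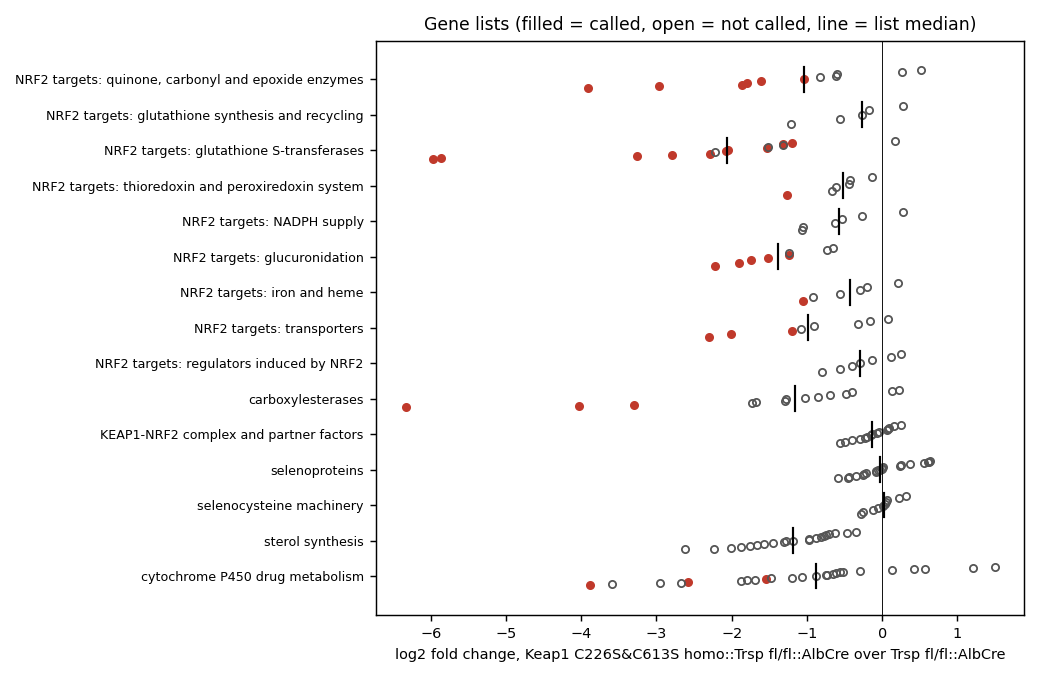
Log2 fold change of the compound mutant over Trsp fl/fl::AlbCre (x axis) for each tested member of the NRF2 target lists and of 6 other lists (y axis), filled where called, with a line at the list median. Calls gather in the transferases, the quinone and carbonyl enzymes, glucuronidation and carboxylesterases, and the selenoprotein and KEAP1-NRF2 lists stay around 0.

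No gene of the KEAP1-NRF2 machinery itself was called. Keap1 mRNA was 10.06, 9.82, 9.61 and 9.55 in Trsp fl/fl::AlbCre and 9.33, 9.69, 9.50 and 9.61 in the compound mutant, a log2 fold change of -0.23 (SE 0.13, adjusted p = 0.38 by limma). Nfe2l2, which encodes NRF2, had 0.25 (SE 0.16, adjusted p = 0.44 by limma), and Cul3 -0.05 (adjusted p = 0.83 by limma). The 15 tested genes of the complex and its partner factors lay between -0.56 and 0.25. NRF2 is controlled mainly as a protein, which was not measured here. Among the 25 tested genes on each side of Keap1 on chromosome 9, none was called. The nearest to a call was Tmem205, named after its values were seen, with a log2 fold change of -0.75 (adjusted p = 0.0053 by limma), short of the fold limit.

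No selenoprotein mRNA was called, out of 21 tested, and the list had a median log2 fold change of -0.03. Gpx1, cytosolic glutathione peroxidase, was 11.99, 11.66, 11.71 and 11.43 against 11.59, 11.81, 11.50 and 11.85, a log2 fold change of -0.01 (SE 0.21, adjusted p = 0.99 by limma). Selenow was 7.61 ± 0.25 and 7.62 ± 0.11 (SD, n = 4 each). Selenop, the plasma selenium carrier, was 15.48 ± 0.11 and 15.40 ± 0.29. The mRNAs of some selenoproteins are degraded when selenocysteine cannot be inserted. Gpx1 was 13.81 ± 0.50 in Trsp fl/fl and 13.53 ± 0.29 in substitution-only livers, and every AlbCre liver lay below every liver of those groups.

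Beyond the NRF2 target lists, 46 genes were called lower, of which 7 belonged to other lists and 39 to none. Carboxylesterases, which split ester drugs and lipids, included the most negative value of the called genes. Ces1f (ENSMUSG00000031725) on chromosome 8 had 1516, 404, 1451 and 1331 reads in Trsp fl/fl::AlbCre and 11, 11, 5 and 20 in the compound mutant. The log2 fold change was -6.33 (SE 0.56, adjusted p = 9.4e-06 by limma), a 111-fold ratio of mean normalized counts. Ces2c fell by 4.03 (adjusted p = 0.00043 by limma) and Ces1g fell by 3.30 (adjusted p = 0.0081 by limma, lost without replicate 1), and 12 of 14 tested members were below 0. Copies of this family are similar, so their reads could be divided by the counting.

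Cytochrome P450 genes of drug metabolism were called lower in 3 of 25. Cyp2a5, the coumarin hydroxylase, was 16.14, 16.22, 15.26 and 15.47 against 10.67, 12.40, 11.45 and 13.05, a log2 fold change of -3.88 (SE 0.59, adjusted p = 0.0022 by limma). Cyp2c50 and Cyp2c39 had log2 fold changes of -2.58 and -1.55 (adjusted p = 0.0032 and 0.0017 by limma), and 13 of 13 tested Cyp2c genes had values below 0. The Cyp3a genes had values on both sides of 0, with a median of 0.13 over 7. Cyp7b1, an oxysterol hydroxylase of bile acid synthesis, fell by 2.22 (SE 0.28, adjusted p = 0.00028 by limma), while Cyp7a1, the rate-limiting enzyme of the main route, had -0.14 (adjusted p = 0.9 by limma).

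The lower genes included Aldh1a1, Aldh1a7, Cyp26a1, Rdh16f2 and Bco2, which act on retinoids or carotenoids and are set together here only for description, after their values were seen. The retinal dehydrogenases Aldh1a2 and Aldh1a3 had log2 fold changes of 0.13 and 1.08 (adjusted p = 0.9 and 0.14 by limma). Aldh1a1, a retinal dehydrogenase, was 12.97, 11.76, 13.06 and 13.07 in Trsp fl/fl::AlbCre and 8.77, 9.06, 9.22 and 10.50 in the compound mutant. It fell by 3.33 on the log2 scale (SE 0.45, adjusted p = 0.00068 by limma), and its paralogue Aldh1a7 fell by 3.5 (adjusted p = 0.0013 by limma). Cyp26a1, which degrades retinoic acid, fell by 3.53 (SE 0.59, adjusted p = 0.0046 by limma), Rdh16f2, a retinol dehydrogenase family member, fell by 1.28 (adjusted p = 0.0033 by limma) and Bco2, a carotenoid-cleaving oxygenase, fell by 1.89 (adjusted p = 0.00023 by limma). Cyp26a1 and Rdh16f2 were not called without replicate 1 of the compound mutant.

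Vtcn1 and Mfsd2a, genes of other functions, were also among the lowest. Vtcn1 (ENSMUSG00000051076), the T-cell checkpoint ligand B7-H4, had 119, 40, 101 and 82 reads in Trsp fl/fl::AlbCre and 2, 3, 1 and 0 in the compound mutant, beside 1 to 5 in Trsp fl/fl. Its log2 fold change was -4.10 (SE 0.29, adjusted p = 5.2e-07 by limma). Mfsd2a, a lysophosphatidylcholine transporter, was 7.27, 7.58, 8.38 and 8.82 against 2, 4.75, 3.25 and 6.15, a log2 fold change of -3.98 (SE 0.69, adjusted p = 0.0061 by limma). It varied widely within the compound mutant and was lost without replicate 1.

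For most of the lower genes the compound mutant livers lay between or below the 2 selenoprotein-replete genotypes. Since these libraries also enter the main comparison on one side, the counts that follow are a description. In Trsp fl/fl::AlbCre, 71 of the 72 genes had a higher mean than in Trsp fl/fl, beside 47.7% of all genes tested, and in the compound mutant 61 of 72 had a lower mean than in Trsp fl/fl, beside 51.4%. For 24 genes, among them Nqo1, Gstm1, Gstm3, Mgst1 and Abcg2, all 4 compound mutant livers were below all 4 Trsp fl/fl livers, as in 3.14% of all genes tested. Against substitution-only livers, the compound mutant mean was lower for 37 of the 72, beside 8003 of all 15781 genes tested. Of the 26 from the NRF2 lists it was lower for 8. Among the others, Aox1, Ugdh and Nqo1 were higher by 1.73, 1.41 and 1.13 (adjusted p = 0.0056, 0.0063 and 0.017 by limma).

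A smaller set of 13 lower genes had a Trsp fl/fl::AlbCre mean within 0.5 of that of Trsp fl/fl, so that by this choice the compound mutant stood apart from both. In substitution-only livers 12 of the 13 were also below Trsp fl/fl, beside 51% of all genes tested, with a median log2 fold change of -0.64. Bco2 was 8.03, 8.28, 7.90 and 7.81 in the Trsp fl/fl livers, 7.70, 7.77, 8.01 and 8.04 in Trsp fl/fl::AlbCre and 5.61, 5.92, 5.66 and 6.77 in the compound mutant. Ugt2a3, a glucuronosyltransferase of the chromosome 5 cluster, was between 10.32 and 10.95 in Trsp fl/fl, between 10.47 and 10.86 in Trsp fl/fl::AlbCre and between 7.89 and 9.71 in the compound mutant. Cyp2c50 was between 13.22 and 14.10 across both former groups and between 9.68 and 12.15 in the compound mutant. The others were Fitm1, Sult1b1, Mpv17l, Ttc38, Cyp2c39, Pctp, Aox3, Ugt2b36, Cd1d1 and Mgst1. Of these, Fitm1, Ttc38, Pctp, Aox3, Ugt2b36 and Cd1d1 were not called without replicate 1 of the compound mutant, and Aox3 was called under 9 of 27 alternatives. The summed hepatocyte markers ranged from 1989694 to 2419188 normalized counts in Trsp fl/fl::AlbCre, were 1293575 and 1735255 in replicates 1 and 3 of the compound mutant, and 2140638 and 2251854 in replicates 2 and 4. In whole liver, fewer hepatocytes and less RNA per hepatocyte cannot be told apart, and their part in these values was not tested. Markers of pericentral hepatocytes, where many detoxification enzymes are expressed, had 10 of 12 values below 0 and 0 calls. Their median was -0.64, beside 0.01 over all genes tested. For 4 of the 12 all compound mutant livers were below all Trsp fl/fl::AlbCre livers, as in 4.08% of all genes tested. The summed pericentral markers were 87750 to 188800 normalized counts in Trsp fl/fl::AlbCre and 41710 to 103500 in the compound mutant. These ranges overlap. Periportal markers had 9 of 11 values below 0, a median of -0.47 and 0 calls, and 1 of 11 did not overlap between the groups. Their sums were 1256000 to 1640000 in Trsp fl/fl::AlbCre and 694300 to 1397000 in the compound mutant, which also overlap. The part of pericentral or periportal hepatocytes in the lower genes was not tested.

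The spread within the compound mutant was wide for the lower genes. Their median SD was 0.50 there and 0.36 in Trsp fl/fl::AlbCre, beside 0.27 in each of both groups over all genes tested. Replicate 4 was the highest of the 4 for 52 of the 72 genes (72.2%), against 32.4% of all genes tested. Replicate 1 was the lowest for 36 and replicate 3 for 28. All 72 genes had compound mutant replicates 2, 3 and 4 below every Trsp fl/fl::AlbCre liver. All kept a negative fold change in each of the 16 fits that left out 1 library. The 72 were called from these same livers and none overlapped between the groups, so this separation and sign follow from the choice of genes. Of the 72, 40 were called in all 16 of those fits, among them Nqo1, Gsta1, Gstm3, Gstm1, Srxn1, Ugdh, Abcc4, Ces1f and Vtcn1.

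The same substitutions were compared in mice that make selenoproteins, using the other 8 libraries, which share none with the main comparison. There limma called 1 gene lower, Nqo1, and 1 higher, Tram2, and 749 and 682 genes reached an unadjusted p under 0.05. Even so, 68 of the 72 genes called lower in the AlbCre background were below 0 there (94.4%), against 51% of all genes tested, with a median log2 fold change of -0.63. The exceptions were Mfsd2a, Cyp2a5, Abcc3 and Cd1d1. Nqo1 fell by 1.82 without AlbCre (adjusted p = 0.0015 by limma), and 7 of the 72 had an adjusted p under 0.05, the others being Ces1f, Ces1g, Cyp26a1, Gstm3, Mpv17l and Pir. The value was more negative than in the AlbCre background for 1 gene, Ces1g, at -4.20 without and -3.30 with AlbCre. Cyp26a1 had nearly equal values, -3.51 and -3.53.

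**Figure D4:**
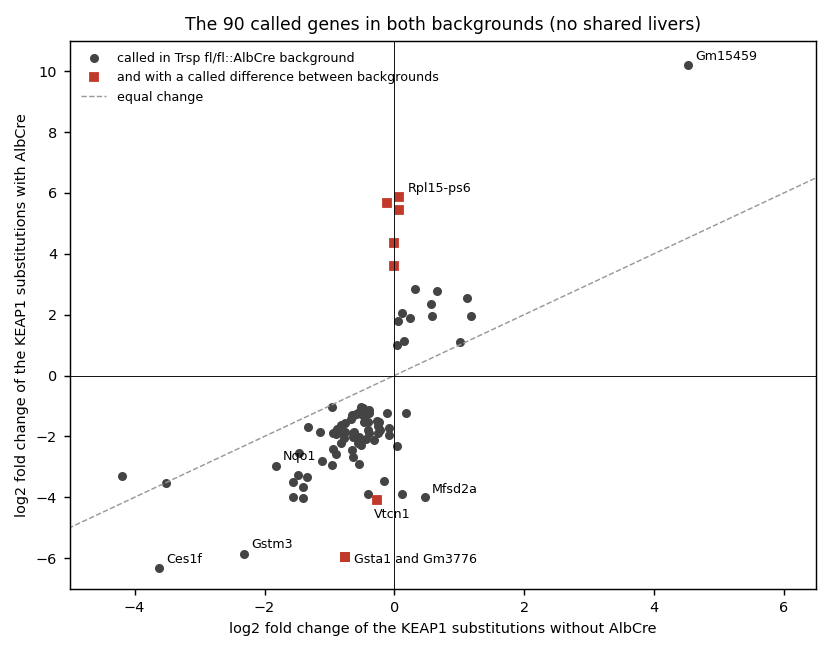
Log2 fold change of the KEAP1 substitutions with AlbCre (y axis) and without it (x axis) for the 90 called genes, with a dashed line at equal change and red squares where the difference between backgrounds was itself called. Genes called lower lie mostly left of 0 and below the line, while the 5 red squares at the top lie close to 0 on the x axis.

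Whether the substitution effect differed between the backgrounds was tested as an interaction in the same fit. With limma, 4 genes were more negative with AlbCre and 5 more positive, 0.057% of those tested, and 835 and 862 reached an unadjusted p under 0.05. Without replicate 1 of the compound mutant these counts were 5 and 6, and without replicate 4 they were 8 and 6. For 8 of these 9 genes, both groups without AlbCre were near 0 reads, so that the floor fixed the direction and the values are a description. The 5 more positive ones are the genes with reads in the compound mutant alone, given below with their reads. Gsta1 had an interaction of -5.21, with 0 to 7 reads in Trsp fl/fl and 0 to 1 in substitution-only livers. Gm3776 had -5.19, with 1 to 7 and 0 to 2 reads, and Vtcn1 had -3.84, with 1 to 5 and 1 to 4 reads. With a constant of 0.5, or with voom on recovered reads, none of these 3 was called, and with a constant of 1 Vtcn1 alone was. The remaining gene, Tram2, was named after its values were seen. Its log2 fold change was -0.02 with AlbCre and 1.21 without, and its interaction of -1.23 (adjusted p = 0.005 by limma) was called in 6 of the 16 fits that left out 1 library. For Nqo1 the interaction was -1.14 (adjusted p = 0.24 by limma), for Gstm1 -1.78 (adjusted p = 0.2 by limma) and for Ces1f -2.70 (adjusted p = 0.3 by limma), values that do not show whether the effect is alike in both backgrounds.

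Of the 18 genes called higher, 10 are protein-coding and 5 are pseudogenes. The largest set was present in 1 genotype: 5 genes had at least 10 reads in every compound mutant liver and at most 1 read in each of the 12 other livers, and no gene had that pattern in Trsp fl/fl::AlbCre. They passed the filter on low values through the compound mutant alone, so the counts are a description. The labels give neither strain background nor batch, so these cannot be told apart from the genotype here or in the rest of the comparison. Rpl15-ps6 had 231, 246, 255 and 252 reads in the compound mutant livers and 0 in every Trsp fl/fl::AlbCre liver, so that it was at least 69.9-fold higher against a floor of 3 reads per library. Gm3375 had 187, 192, 194 and 194 reads, Rprl3, an RNase P RNA-like gene, 266, 196, 308 and 163, Rpl15-ps2 70, 109, 91 and 95, and Gm5898 37, 40, 50 and 96. Each of these 4 had 1 read over all Trsp fl/fl::AlbCre livers. For Gm3375 the ratio was 660-fold, with an exact 95% interval of 118 to 26100 that covers counting error only.

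These pseudogenes are copies of expressed genes, to which short reads can be assigned in more than 1 way. Rpl15 itself, which encodes a ribosomal protein, had 2661 to 3404 reads in the compound mutant and 2190 to 3254 in Trsp fl/fl::AlbCre. Another copy, Rpl15-ps3, went the other way, with 0 reads in all 4 compound mutant livers and 0, 164, 120 and 276 in Trsp fl/fl::AlbCre. Its log2 fold change of -4.23 was not called. Gm15459, a processed pseudogene on chromosome 5, had 7490, 13261, 11295 and 10742 reads in the compound mutant and 2 to 8 in Trsp fl/fl::AlbCre. It also had 2809 and 5709 reads in substitution-only replicates 2 and 4 and 4 and 3 in replicates 1 and 3. Its level thus varied between mice of 1 genotype, and no liver with wild-type Keap1 had more than 8 reads. Its log2 fold change was 10.19 (SE 1.66, adjusted p = 0.0039 by limma), a call lost without replicate 1. For Gm53012, higher by 2.84 (adjusted p = 0.007 by limma) and also lost without replicate 1, 3 of 4 Trsp fl/fl::AlbCre livers had 0 reads and the other 19, while the 12 livers of the other genotypes had 21 to 67.

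**Figure D5:**
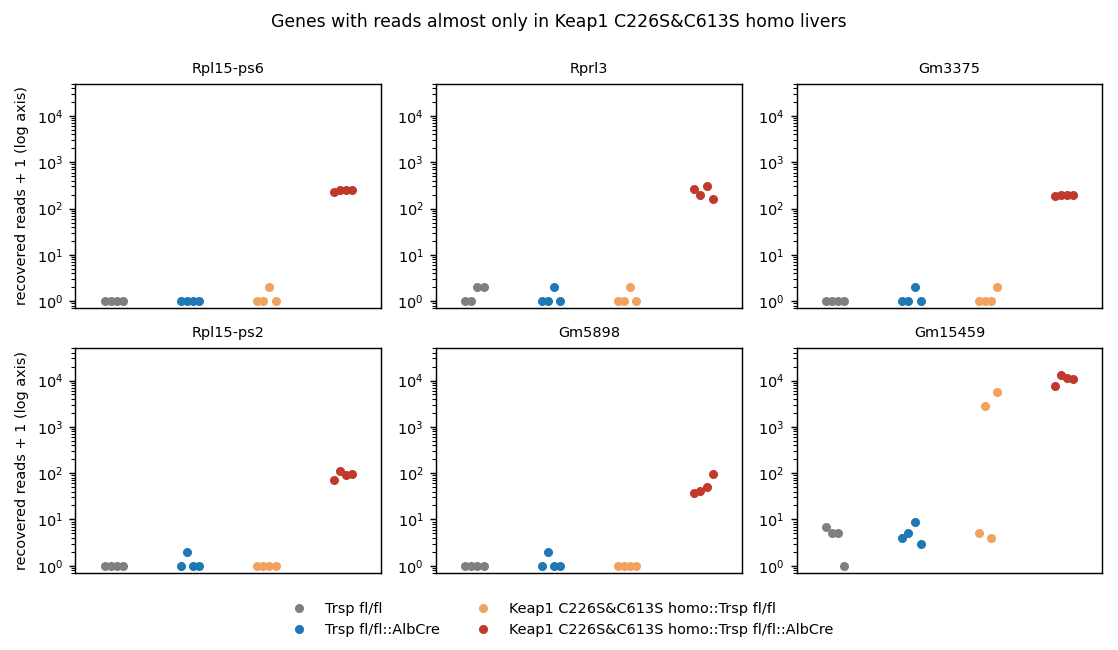
Recovered reads plus 1 (y axis, log scale) of 6 genes called higher, in each of the 16 livers by genotype. In 5 of them reads stay at or below 1 outside the compound mutant, and Gm15459 is also high in 2 of 4 substitution-only livers.

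Of the 10 protein-coding genes called higher, Ear1 had the largest fold change and Chil3 the next. Ear1, an eosinophil-associated ribonuclease, was 2.33, 2, 2.62 and 2.80 in Trsp fl/fl::AlbCre and 5.04, 4.89, 5.64 and 5.29 in the compound mutant, a log2 fold change of 2.78 (SE 0.37, adjusted p = 0.0007 by limma). Chil3, a chitinase-like protein of macrophages and neutrophils, was 4.54, 3.72, 4.73 and 4.07 against 6.62, 6.87, 7.34 and 6.36, a log2 fold change of 2.53 (SE 0.45, adjusted p = 0.0068 by limma), a call lost without replicate 1. Dnai1, an axonemal dynein chain, was higher by 2.34 (adjusted p = 0.001 by limma), and Slc30a3, a zinc transporter, by 2.07 (adjusted p = 0.008 by limma). Reads of Dnai1 were 2 to 16 in Trsp fl/fl::AlbCre and 42 to 76 in the compound mutant. They were 26 to 41 in Trsp fl/fl and 38 to 83 in substitution-only livers. For this gene Trsp fl/fl::AlbCre was thus the group that stood apart. Reads of Slc30a3 were 1 to 20 in Trsp fl/fl::AlbCre and 40 to 67 in the compound mutant. They were 16 to 24 in Trsp fl/fl and 18 to 33 in substitution-only livers. Krt20, an epithelial keratin, was higher by 1.96 (adjusted p = 0.0066 by limma). Slc30a3 and Krt20 were not called without replicate 1.

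No neutrophil marker was called. All 11 tested were above 0, their median was 1.99 on the log2 scale, and 7 did not overlap between the groups, beside 4.53% of all genes tested. S100a8 was 6.30, 5.82, 6.87 and 6.21 against 8.34, 8.35, 9.25 and 7.44, a log2 fold change of 2.05 (SE 0.47, adjusted p = 0.034 by limma). The summed neutrophil markers were 350 to 616 normalized counts in Trsp fl/fl::AlbCre and 906 to 2726 in the compound mutant, without overlap. The summed B-cell markers were 244 to 281 and 339 to 727, with 10 of 10 above 0, and the megakaryocyte markers 101 to 149 and 193 to 359, with 6 of 6 above 0. Of these markers, 3 of 10 and 4 of 6 did not overlap between the groups. T and NK cell markers had 8 of 9 below 0 and a median of -0.18. Neutrophil and B-cell markers also had positive medians without AlbCre, 0.84 and 1.37, while megakaryocyte markers had -0.10. The megakaryocyte markers summed to 125 to 527 in Trsp fl/fl and 165 to 334 in substitution-only livers, ranges that overlap that of the compound mutant. Kupffer cell markers had 6 of 12 above 0 and summed to 8913 to 15472 and 6809 to 14246, which overlap. The part of these cells in the genes called higher was not tested.

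Injury and wound response genes were uneven between the compound mutant livers. Their sum was 210036 normalized counts in replicate 1 and 153592 in replicate 3, and 51645 and 55112 in replicates 2 and 4, against 43834 to 51408 in Trsp fl/fl::AlbCre. Of 18 tested, 15 were above 0 and 0 were called. Afp, alpha-fetoprotein, was 5.66, 4.85, 5.45 and 5.68 against 7.51, 8.39, 7.10 and 5.98, a log2 fold change of 1.83 (SE 0.48, adjusted p = 0.063 by limma). Igf2, a growth factor of fetal liver, was 5.30, 6.27, 4.79 and 4.79 against 9.77, 9.71, 8.49 and 7.49, a log2 fold change of 3.58 (SE 0.82, adjusted p = 0.034 by limma). Nupr1, a stress-induced chromatin protein, had 2.03 (SE 0.39, adjusted p = 0.012 by limma). None of these passed the threshold, although the values of all 3 did not overlap between the groups, as upward in 4.53% of all genes tested. Only Afp is of the injury list, where 1 of 18 tested did not overlap. Nupr1 is of the integrated stress response list, with 12 of 17 above 0. Igf2 is of the growth hormone and IGF list, with 6 of 14 above 0. Igf2 also had 474, 579, 79 and 637 reads in substitution-only livers, beside 25, 23, 391 and 50 in Trsp fl/fl. Erythroid markers summed to 100548 in replicate 1 and to 18474 to 28632 in the other 3, against 19108 to 38777 in Trsp fl/fl::AlbCre.

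Sterol synthesis genes had 21 of 21 values below 0 and a median log2 fold change of -1.18, yet 0 were called. Fdft1, squalene synthase, had the smallest p of the list, with 9.58, 9.82, 10.80 and 10.98 against 8.25, 9.27, 8.69 and 9.84. These groups overlapped, and its log2 fold change was -1.28 (SE 0.37, adjusted p = 0.087 by limma). The median of the list was -1.66 in the comparison without AlbCre. Genes of the list change together within a liver, so its count is not 21 separate observations.

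Antioxidant response elements, the sites of NRF2 and small MAF proteins, were looked for as letters in RefSeq promoters of GRCm38.p6, from 250 bases before to 50 after the gene start. The core searched was TGACNNNGC on both strands. Of 10900 tested genes with a promoter matched by symbol, 14.4% held it. Among the genes called lower, 55 matched and 9 held it (16.4%), and among all tested NRF2 list members 16 of 59 did (27.1%). The 4 windows below show the core in capitals in lower genes, each of 49 bases and written along the gene's strand, 3 from the NRF2 lists and 1 from outside them. A core in GC-first order lies on the opposite strand.
Ugdh, chr5:65435946-65435994, minus strand: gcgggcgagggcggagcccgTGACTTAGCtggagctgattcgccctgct
Pir, chrX:164269197-164269245, plus strand: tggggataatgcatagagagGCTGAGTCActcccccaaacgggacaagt
Mgst1, chr6:138140451-138140499, plus strand: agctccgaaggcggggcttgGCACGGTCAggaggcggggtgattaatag
9130409I23Rik, chr1:181051058-181051106, plus strand: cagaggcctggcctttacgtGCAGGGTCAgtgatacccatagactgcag
The share among lower genes was near that of all genes, and Nqo1, Gsta1 and Gstm3 had no match in this window, which says only that these letters are not within it.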

How the data were processed

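Total liver RNA was depleted of ribosomal RNA, made into strand-specific libraries and sequenced in pairs by the authors, who estimated reads per transcript with Salmon and a GENCODE mouse transcript set and processed them on the iDEP platform. The authors deposited log2 values, which were found to be log2 of reads divided by a library size factor, plus 4: 100% of values of up to 50 reads came out whole within 0.05. Genes without a row are not analysed here.

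Samples were grouped by their titles. Of 18578 rows, 369 without an identifier (0.274% to 0.627% of reads) were left out. All 16 libraries, holding 11386721 to 19164108 reads, entered one limma fit (3.58.1, R 4.3.3) with a mean per genotype, eBayes with trend and 12 residual degrees of freedom. P-values were adjusted over 15781 genes and measure the spread between mice. No covariate was used. The depth makes counting error small beside that spread except for genes with few reads. Correlations of replicates across genes, which are not independent, were 0.946 to 0.980. Named genes were up to 12 called per direction by size without overlap of the groups, the genes the study names, up to 4 called members of each of 43 lists or otherwise the one with the smallest p, and sex-linked genes. 1 named gene is not reported here. The members and lists were chosen with earlier results of these data known. Replicate numbers did not pair the libraries. The fit was run on simulated data with the same spread setting in every group, which does not show how it fares with the unequal spread found here. Tables and plots used Python 3.11.15, pandas 2.3.3 and matplotlib 3.10.9. Alternatives were other constants, filters, scalings, fits and thresholds, and each library left out in turn. Probe sequences came from the study's supplement, codon positions from GENCODE transcripts on GRCm38, and promoters from RefSeq.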

Additional observations from a re-analysis of the deposited data

Results flagged for a closer look

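Single livers far from the other 3 of their group were looked for with Dixon's test among the named genes. It marked 19 of 180 groups of 4, where chance gives about 1 in 20, or 9 groups. In replicate 1 of the compound mutant, Xist was 14.71 with the next at 5.76, Ddx3y, Uty and Eif2s3y were 2 with the next at 10.35, 8.14 and 8.67, Kdm5d was 2.55 with the next at 6.95, and Eif2s3x was 11.30 with the next at 10.72. In replicate 2 of the compound mutant, Ces2c was 5.26 with the next at 4.32 and Cyp2c39 was 5.26 with the next at 4.87. In replicate 4, H2-Q10, a class Ib MHC gene, was 12.71 with the next at 11.71.

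In Trsp fl/fl::AlbCre replicate 2, the values were low for Ces1f (9.06, the next 10.36), Selenop (15.32, the next 15.53), Ugdh (11.72, the next 11.97) and Apoa2 (15.29, the next 15.58), and high for Gm53012 (4.85), Rpl15-ps2 and Gm5898 (2.41 each), where the other 3 livers held 0 reads. In replicate 3, Sox9 was 5.79 with the next at 6.23, and Rprl3 and Gm3375 were 2.34 each, which is 1 read against 0. Rpl15-ps2, Gm5898, Rprl3 and Gm3375 were thus marked for a single read.

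For 8 of the genes named, the interaction of the KEAP1 substitutions with AlbCre was called in limma, but low counts fixed its direction, so the values are a description. Gsta1 (-5.21), Gm3776 (-5.19) and Vtcn1 (-3.84) had at most 7 reads in each liver without AlbCre, and none of the 3 was called with a constant of 0.5 or with voom. Rpl15-ps6 (5.80), Rprl3 (5.77), Gm3375 (5.35), Rpl15-ps2 (4.36) and Gm5898 (3.61) had at most 1 read in each liver outside the compound mutant, so these values restate where the reads were.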

How the results depend on the processing

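The count of lower genes, 72, stayed within 1.5 times of itself except for 34 in a fit of the 8 libraries alone, 125 at an adjusted p under 0.05, and some fits without 1 library, which ranged from 42 to 137. The 18 higher genes became 28 with library totals, 11 with voom on recovered reads and 64 at an adjusted p under 0.05, and ranged from 8 to 41 without 1 library. The 26 lower NRF2 targets became 15 in the 8 libraries alone and ranged from 20 to 32 without 1 library. The 4 more negative interactions became 1 with a constant of 0.5, 2 with 1, 1 with voom and 9 at an adjusted p under 0.05, and ranged from 3 to 8 without 1 library. The 5 more positive became 3 with a minimum of 50 normalized counts, and ranged from 5 to 7 without 1 library. The fit of the 8 libraries has fewer residual degrees of freedom and leaves out 2 groups with a smaller spread in the lower genes. Their median SD was 0.309 in Trsp fl/fl and 0.278 in substitution-only livers, beside 0.362 in Trsp fl/fl::AlbCre and 0.499 in the compound mutant. The cause of the shifts was not tested. Library totals moved the median of all genes to 0.13. Under all 27 alternatives, 28 of the 72 lower and 6 of the 18 higher genes were called.

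Replicate numbers did not pair the libraries: correlations of same-numbered deviations between the 2 groups compared were from -0.11 to 0.16, and 1 compound mutant library of 4 correlated best with its own number. With the replicate block, 62 genes were lower, 13 higher and 23 NRF2 targets lower.

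Values of single named genes turned sign only where they were near 0 or where replicate 1 of the compound mutant set them. With quantile normalization and with library totals, Gpx1 was 0.21 and 0.12 and Selenop 0.25 and 0.042; Selenow was -0.0026 with the former and Selenoh 0.038 with the latter. Without 1 library, Gpx1 ranged from -0.10 to 0.090, Selenow from -0.077 to 0.11, Selenoh from -0.39 to 0.15, Selenop from -0.19 to 0.035, Kdm6a from -0.12 to 0.14, Eif2s3x from -0.084 to 0.14, Ddx3y from -2.88 to 0.063, Uty from -2.13 to 0.051 and Kdm5d from -1.34 to 0.23. Of 2448 values of named genes under alternatives, 2272 kept their direction and call, 133 lost the call, 18 gained one and 25 turned sign.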
